A study of Homo sapiens with 8 samples.

Results

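To compare cells that differ in p53 after the same DNA damage, the treated arrays of both genotypes were set against each other. They were 6 of the 8 arrays of the series: 3 of MCF10A p53+/+ cells and 3 of MCF10A p53-/- cells, chosen by their labels as harvested at 12, 24 and 48 h after doxorubicin (adriamycin, ADR), with 1 array per genotype and time. MCF10A is an immortalised, non-tumorigenic human mammary epithelial cell line. The sample labels give 0.5 µg/ml for 2 h to both genotypes, and the study's methods give another dose. How the p53-/- line was made, and whether it is 1 clone, is not given in the sources used here. The arrays taken at the time of treatment were not used, so a difference between treated arrays cannot be told apart from one that the lines had before ADR. The 3 time points stand in for replicates, and each standard error (SE) below therefore holds the movement over time.

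p53 is a transcription factor that is kept low by the ubiquitin ligase MDM2 and is released from it when DNA is damaged. It activates genes of cell cycle arrest, death, repair and metabolism through its response element. Many cell cycle genes are lowered in its presence by way of p21 (CDKN1A), which keeps retinoblastoma-family proteins active, so that the DREAM complex and E2F-binding repressors sit on cell cycle promoters. ADR intercalates into DNA and traps topoisomerase II, which leaves double-strand breaks.

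RNA was hybridised to single-colour Agilent arrays, and each level below gives the signal on the log2 scale relative to the 75th percentile of its array. That percentile was 661.2 to 817.6 for p53+/+ and 1118.5 to 1198.8 for p53-/- cells, and scaling to it moves p53+/+ levels upwards relative to p53-/- levels. On the p53-/- arrays 57.4 to 62.9% of probes were well above background, and on each p53+/+ array fewer were, with 49.8% as the lowest share. The p53+/+ array at 48 h stood apart: none of its spike-in transcripts was well above background, whereas 6 of 10 were on each of the other treated arrays. All arrays lay on 1 slide, but no slide column held both genotypes, and the effect of position cannot be told apart from that of genotype. In bulk RNA, fewer cells of a type and less RNA per cell cannot be told apart either. The MCF10A markers summed to between 1140 and 1200 times the 75th percentile in p53+/+ cells and to between 427 and 513 times in p53-/- cells, so both lines expressed the keratins of this line. The basal factor TP63 was the exception, with levels of -6.05, -6.15 and -4.06 in p53+/+ cells against -5.65, -4.89 and -4.88 in p53-/- cells, and was well above background on 1 of 3 and 2 of 3 arrays.

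Of 15713 named genes tested, 1807 (11.5%) were higher and 1467 (9.34%) were lower in treated p53+/+ cells at an adjusted p of 0.05. Over all probes the counts were 2963 higher (10.4%) and 2132 lower (7.48%) of 28494, so 58.2% of the called probes were higher. That split depended on the scaling. When arrays were scaled to their median, 45.1% of calls were higher. The share was 48.1% with quantile normalization, 14.6% with no scaling and 21% when the 12 and 24 h arrays were scaled to the spike-ins. The median over all probes moved from 0.09 to -0.05, -0.04, -0.51 and -0.55 in the same order. By size alone, 1076 genes (6.85%) were at least 2-fold higher and 933 (5.94%) at least 2-fold lower at each of 12, 24 and 48 h. For 24.6% of genes all 3 p53+/+ arrays read above all 3 p53-/- arrays, and for 19.9% they read below.

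**Figure D1:**
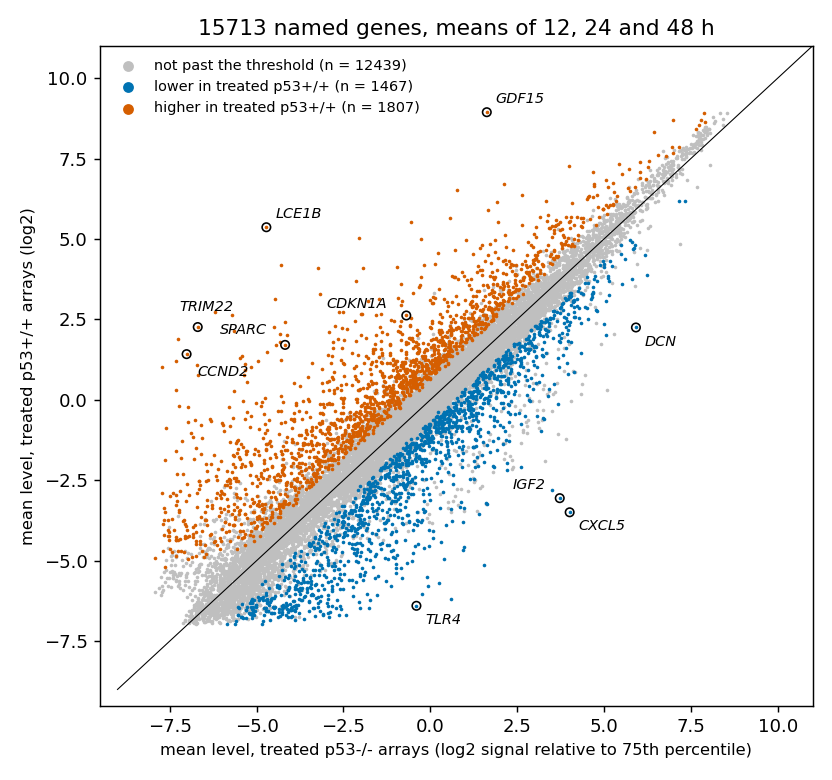
Mean log2 level of 15713 named genes on the 3 treated p53-/- arrays (x axis) and on the 3 treated p53+/+ arrays (y axis). Orange points (1807) were higher and blue points (1467) lower in p53+/+ cells at an adjusted p of 0.05, grey points were not past it, the line marks equal levels, and circled genes are named in the text.

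Genes of the cornified layer of skin led the genes that were higher in p53+/+ cells and measurable on all 6 arrays. LCE1B, a late cornified envelope protein, read 4.31, 6.36 and 5.42 in p53+/+ and -4.44, -4.86 and -4.85 in p53-/- cells, a difference of 10.08 ± 0.50 (adjusted p = 0.000236). LCE3B differed by 7.61 and LCE1E by 7.32, although probes of this gene family can share signal among its members. The 3 p53+/+ levels of each LCE gene lay far above the 3 p53-/- levels, which the choice of these genes by size at every time nearly fixes. GDF15, a stress-induced cytokine of the TGF-beta family, stood at 8.83, 9.02 and 8.97 against 0.23, 2.15 and 2.51. ABCA12, a lipid transporter of keratinocytes, differed by 7.08, GLS2, a mitochondrial glutaminase, by 6.58, and BST2, the antiviral membrane protein tetherin, by 6.46. IVL (involucrin, 6.12), RNASE7 (an antimicrobial ribonuclease of epithelia, 6.11) and DNAI3 (an intermediate chain of axonemal dynein, 5.56) completed the 10 genes.

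Some genes were measurable in p53+/+ cells only, so that only a bound can be given. TRIM22, an antiviral ubiquitin ligase, read 1.99, 2.61 and 2.19 in p53+/+ cells, was not well above background on any p53-/- array, and was at least 226-fold higher (adjusted p = 0.00035). TNFRSF10C, a decoy receptor for the death ligand TRAIL, was at least 179-fold higher. CCND2, the D-type cyclin 2, was at least 130-fold higher, PNMA8A at least 113-fold and CGREF1 at least 97.9-fold. In all, 152 of the 1807 higher genes were well above background on none of the p53-/- arrays, and 294 of the 1467 lower genes on none of the p53+/+ arrays. Such genes entered the test through the arrays of the brighter genotype and could hardly have come out the other way. Their direction was therefore largely set by the filter, and their adjusted p rests on signals near background. This holds for each such gene named in this text.

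In the other direction, IGF2, a fetal growth factor, read -2.86, -2.77 and -3.54 in p53+/+ cells against 3.96, 3.72 and 3.50 in p53-/- cells, a difference of -6.78 ± 0.27 (adjusted p = 0.000112). CYB5R2, a cytochrome b5 reductase, differed by -4.88, UHRF1, which brings maintenance DNA methylation to replicated DNA, by -4.71, and PMP22, a membrane protein of myelin and epithelia, by -4.39. BAIAP2L2 (-4.13), GFPT2 of hexosamine synthesis (-3.80), SLITRK6 (-3.73), the matrix proteoglycan DCN (-3.67), GAS1 (-3.66) and the interferon-induced IFI44L (-3.23) followed. The groups of arrays did not overlap for any of these 10 genes, which their choice by size at every time nearly fixes. Of all genes, 19.9% did not overlap in this direction. Among genes near background in p53+/+ cells, the chemoattractant receptor FPR1 was at least 71.9-fold lower, SAMSN1 at least 37.8-fold, CNRIP1 at least 29.8-fold and the lipopolysaccharide receptor TLR4 at least 18.8-fold lower. The direction of these genes too was largely set by the filter. CXCL5, a neutrophil chemokine, was well above background on 2 of 3 p53+/+ arrays and differed by -7.51 ± 0.35.

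Reported p53 targets were described as 6 lists by role, of 102 genes in all, with 99 tested. Of these, 77 (77.8%) were higher and 3 (3.03%) lower in p53+/+ cells, against 11.5 and 9.34% of all genes tested. Their median difference was 1.88, and 1.74, 1.98 and 1.72 at 12, 24 and 48 h, beside 0.05 over all genes. Most members are textbook targets, but TNFSF9, CDC42BPG and FST are those that the study itself reported as new. The lists were chosen with earlier results of these data known, so their direction is not independent evidence. Without the p53+/+ array at 48 h, 74 were higher and 3 lower, and with spike-in scaling of the 12 and 24 h arrays 51 were higher and 4 lower. Without the 24 h pair, 23 were higher and 0 lower.

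Among the promoters of genes that were at least 2-fold higher at every time, 10 of 817 (1.22%) held a p53 response element with up to 2 mismatches to its 20 bases, which reads alike on both strands, with its central C and G bases required. None of 738 promoters of the genes at least 2-fold lower at every time did, a count that allows a share of up to 0.407%. Of all 27305 RefSeq promoters, 0.271% held one. The window spans 250 bases before to 50 after the first listed start of a gene, and of 83 promoters of the p53 lists 2 held a match, AEN and GLS2. AEN, GLS2 and RNASE7 are shown as genes named here that carry the element, and PTCHD4 and PURPL, chosen after their values were seen, because they match it without a mismatch. Capitals mark the element, on the gene's strand, in RefSeq build GRCh38.p14.
GLS2, chr12:56488112-56488137, minus strand: gccggAGGCTTGCTGGGGCATGCGCt
AEN, chr15:88621301-88621330, plus strand: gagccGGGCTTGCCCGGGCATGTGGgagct
RNASE7, chr14:21042181-21042210, plus strand: ttgctGAACATGTTTAGGCAGGTACaggca
PTCHD4, chr6:48111193-48111222, minus strand: atgggAGGCTTGCCCAGACTTGCCCagtga
PURPL, chr5:27472160-27472189, plus strand: gcccaGGGCTTGTCTGGGCATGCCCacagt
PTCHD4, a patched-domain membrane protein, read -2.99, -2.84 and -2.64 in p53+/+ cells and was not well above background on any p53-/- array, and was at least 6.85-fold higher. PURPL, a long non-coding RNA, was well above background on 2 of 3 p53+/+ arrays and on none of p53-/- cells, at least 2.97-fold higher. AEN, an exonuclease induced by p53, stood at 0.66, 0.86 and 0.61 against -1.01, -1.35 and -1.22.

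Of the arrest targets, 11 of 15 were higher and 0 lower, with a median of 1.71. CDKN1A, the CDK inhibitor p21, read 2.54, 2.63 and 2.70 in p53+/+ and -0.96, -0.64 and -0.48 in p53-/- cells, a difference of 3.31 ± 0.20 (adjusted p = 0.000443). Its levels were steady over time in both lines. BTG2, an antiproliferative partner of the deadenylase complex, differed by 5.26, FBXW7, which marks cyclin E and MYC for degradation, by 3.15, and the polo-like kinase PLK3 by 3.13. BTG1 (0.17 ± 0.37) and TRIM32 (0.37 ± 0.16) did not pass.

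The list labelled feedback held targets that act back on p53 and also others, CDIP1, PHLDA3 and AEN among them. Of its 10 members 8 were higher, with a median of 1.96. MDM2 read 1.29, 1.49 and 1.76 in p53+/+ against -2.04, -1.33 and -1.57 in p53-/- cells, a difference of 3.15 ± 0.25 (adjusted p = 0.000937). TP53INP1, a stress-induced p53 partner, differed by 4.62, the death-linked CDIP1 by 3.89 and PHLDA3, an AKT inhibitor, by 3.06. The ubiquitin ligases RCHY1 (0.30) and COP1 (0.62), which also act on p53, did not pass.

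Of the death targets, 15 of 19 were higher and 1 lower, with a median of 1.88. BBC3 (PUMA), a BH3-only killer protein, read 4.12, 4.48 and 3.94 in p53+/+ against -0.92, 0.26 and 0.14 in p53-/- cells, a difference of 4.36 ± 0.35 (adjusted p = 0.000996). EDA2R, a death-domain receptor, differed by 4.08 and TP53I3, a quinone reductase, by 3.30. The BH3-only PMAIP1 (NOXA) differed by 0.65 at 12 h and by -1.03 at 48 h and did not pass (-0.20 ± 0.41). The decoy receptor TNFRSF10D was also close between the lines (-0.21), unlike TNFRSF10C. SIVA1, a death-domain-interacting protein, was the lower member, with 4.19, 3.48 and 3.46 against 5.25, 5.12 and 5.04.

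Metabolic and autophagy targets were higher in 17 of 21 cases and lower in 0, with a median of 1.57. SPATA18, of mitochondrial quality control, read 1.67, 2.60 and 2.13 in p53+/+ cells and was well above background on 1 of 3 p53-/- arrays (difference 7.78 ± 0.38). TIGAR, a fructose bisphosphatase that limits glycolysis, differed by 4.76 ± 0.19 (adjusted p = 0.000113), and the sestrin SESN1, an inhibitor of mTORC1, was 24.2-fold higher. The autophagy kinase ULK1 (0.67) and the cytochrome c oxidase assembly factor SCO2 (0.17) did not pass. Of the repair targets, 6 of 10 were higher and 2 lower. RRM2B, the p53-inducible small subunit of ribonucleotide reductase, differed by 3.70, the bypass polymerase POLH by 2.42 and RPS27L, a ribosomal protein paralogue, by 2.42. FANCC, of the Fanconi anemia core complex, was lower (-1.15). PCNA, the replication clamp, differed by 0.36 and did not pass.

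The list labelled secreted and surface targets also held intracellular proteins, TRIM22, INPP5D and CDC42BPG among them. Of its 24 tested members 20 were higher and 0 lower, with a median of 2.00. INPP5D, a lipid phosphatase known from blood cells, read 4.40, 4.29 and 3.88 in p53+/+ and -6.33, -4.14 and -2.45 in p53-/- cells, where it was well above background on 2 of 3 arrays. SCN4B, a sodium channel subunit, was not well above background in p53-/- cells and was at least 80.2-fold higher. The 3 genes that the study followed behaved unequally. TNFSF9 (CD137L), the ligand of the T cell receptor CD137, read 3.44, 3.67 and 3.60 in p53+/+ against 0.10, 1.69 and 1.55 in p53-/- cells, a difference of 2.45 ± 0.43 (adjusted p = 0.0128). CDC42BPG, a kinase that binds CDC42, read -2.43, -1.95 and -2.13 against -6.16, -4.36 and -3.85, a difference of 2.62 ± 0.58 (adjusted p = 0.0259). It was well above background on 2 of 3 p53-/- arrays, and the difference was 1.51 with normexp background correction. CDC42BPG kept a difference of 2.51 to 3.07 but did not pass without the 24 h pair (adjusted p = 0.192), without the 48 h pair (0.0585), without any single p53+/+ array (0.0521, 0.0846 and 0.0654) or without the p53-/- array at 24 h (0.0668). TNFSF9 kept a difference of 2.05 to 2.69 but did not pass without the 24 h pair (adjusted p = 0.114), without the 48 h pair (0.0606), without the p53+/+ array at 24 h or with spike-in scaling (0.0513 for both). FST, the activin-binding follistatin, read -0.91, -0.70 and -1.26 against -1.84, -0.93 and -0.71, so its arrays overlapped and the difference of 0.21 ± 0.34 did not pass. CSF1 (0.40) and TNFAIP8 (0.23) did not pass either.

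**Figure D2:**
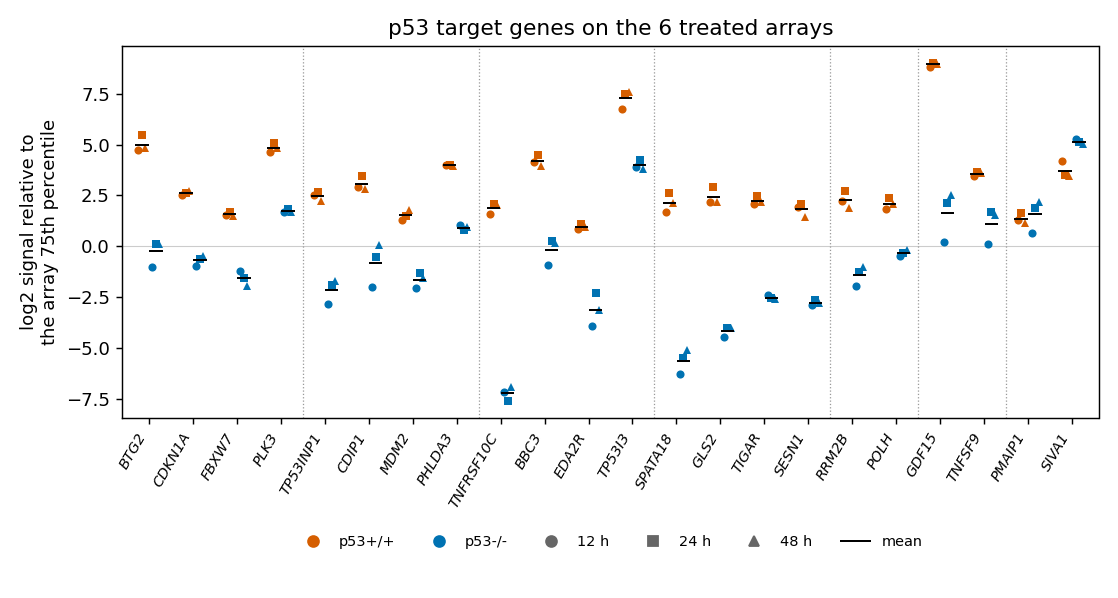
Levels of 22 p53 targets on the 6 treated arrays (log2 signal relative to the array's 75th percentile), with circles for 12 h, squares for 24 h, triangles for 48 h and a bar for the mean. The p53+/+ points (orange) lie above all p53-/- points (blue) for each gene except PMAIP1, where they mix, and SIVA1, where they lie below. Most of these genes were chosen for a large difference, which nearly fixes this. Of all genes tested, 24.6% lie above in the same way.

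Mitotic genes were lower in p53+/+ cells at every time and the difference was larger at 48 h. Their median differences at 12, 24 and 48 h were -1.68, -1.83 and -7.16. Of 34 members, 31 were at least 2-fold lower at every time and 33 lay below all p53-/- arrays, against 5.94 and 19.9% of all genes. The test passed 10 (29.4%, against 9.34% of all genes). Without the p53+/+ array at 48 h, 29 of 34 passed, and with time point as a block 2 passed. Without the 24 h pair, 0 of 34 passed by limma, and 22 had an unadjusted p under 0.05. On the p53+/+ array at 48 h, 15 of 34 were well above background, whereas all 34 were on each other array. With signals set to a floor, the 48 h median was -6.10.

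The promoters of mitotic genes carry the cell cycle homology region, read here as TTTGAA on either strand. It was found in 18 of 28 promoters of the list (64.3%), in 15.4% of all promoters and in 10.8% of those of genes tested. Of genes at least 2-fold lower at every time, 20.5% held it, and of those at least 2-fold higher, 10.5%. CCAAT, on either strand, was found in 82.1% of the mitotic promoters and 35.7% of all. The stretches shown are those of mitotic genes described next, with TTTGAA in capitals, on the gene's strand.
CENPA, chr2:26786026-26786055, plus strand: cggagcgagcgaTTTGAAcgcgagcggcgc
CDC20, chr1:43358904-43358933, plus strand: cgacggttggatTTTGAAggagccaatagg
BUB1B, chr15:40161034-40161063, plus strand: gggaccgttaaaTTTGAAacttggcggcta
PLK1, chr16:23678848-23678877, plus strand: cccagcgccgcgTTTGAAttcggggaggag
KIF23, chr15:69414282-69414311, plus strand: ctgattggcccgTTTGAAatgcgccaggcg
CENPA, the histone H3 variant of centromeres, read -3.18, -3.14 and -6.94 in p53+/+ cells against -0.23, 0.23 and 0.92 in p53-/- cells, a difference of -4.73 ± 1.02 (adjusted p = 0.0246). PLK1, the mitotic polo-like kinase, read -3.07, -3.16 and -4.96 against -0.72, -0.49 and 0.49 (-3.49 ± 0.58, adjusted p = 0.0109). Both lines of values moved apart between 24 and 48 h, the p53+/+ levels downwards and the p53-/- levels upwards. On the p53+/+ array at 48 h CENPA, PLK1, CDC20 and BUB1B were not well above background. The depth of that fall is therefore uncertain. CDC20, an activator of the anaphase-promoting complex, differed by -4.41 and the spindle checkpoint kinase BUB1B by -3.83, and their adjusted p with time as a block was 0.073 and 0.0537. ECT2, which drives cytokinesis, differed by -1.82 (0.051 with the block). PTTG1, the separase inhibitor securin, was the member that was not lower at every time, with 0.65, 0.75 and -0.94 at the 3 times, and its probe may share signal with closely related copies.

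DNA replication genes showed the same order of times, with medians of -1.45, -1.74 and -3.82. Of 38 members 16 (42.1%) were lower and 0 higher, against 9.34 and 11.5% of all genes. At least 2-fold lower at every time were 28, against 5.94% of all genes. Without the p53+/+ array at 48 h 29 were lower. Without the 24 h pair 0 of 38 passed by limma, with 22 lower at an unadjusted p under 0.05. E2F sites were sought as TTTCCCGC, TTTGGCGC, TTTCGCGC and TTCCCGCC on both strands, of which the first and last can overlap. They were found in 23 of 34 promoters of the list (67.6%), in 5.07% of all promoters and in 7.14% of the mitotic promoters, while TTTGAA was found in 2.94% of the replication promoters. These stretches of members described below have the most downstream site in capitals. In those of MCM2 and MCM6 another listed site overlaps it and starts in lower case.
MCM2, chr3:127598406-127598435, plus strand: aaccacttttcGCGCGAAAcctggttgttg
MCM6, chr2:135876511-135876540, minus strand: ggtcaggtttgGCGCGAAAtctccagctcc
PRIM1, chr12:56752329-56752358, minus strand: cggccgtgctgTTCCCGCCaattcctgtgg
MCM6, a subunit of the replicative helicase, read 1.30, -0.07 and -0.88 in p53+/+ against 3.83, 3.35 and 3.00 in p53-/- cells, a difference of -3.27 ± 0.55 (adjusted p = 0.0114). The helicase subunit MCM2 differed by -3.06, PRIM1, the primase that starts each new strand, by -2.77 and ORC1, of the origin recognition complex, by -3.30. ORC1, well above background on 2 of 3 p53+/+ arrays, did not pass with quantile normalization. LIG1, the ligase that joins Okazaki fragments, was close between the lines (-0.23 ± 0.32).

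**Figure D3:**
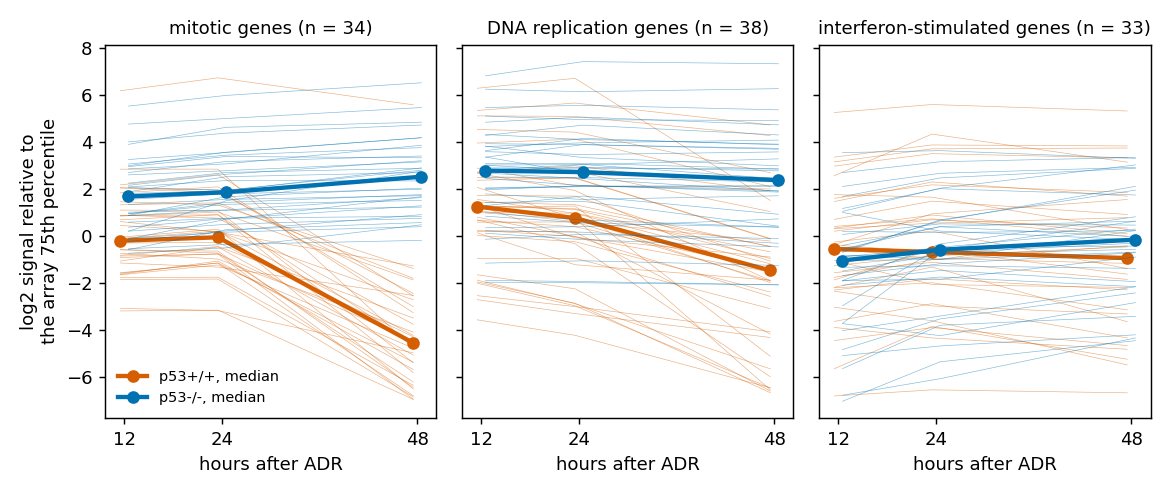
Levels of mitotic (34), DNA replication (38) and interferon-stimulated (33) genes at 12, 24 and 48 h after ADR (log2 signal relative to the array's 75th percentile). Thin lines are genes and thick lines the median of the list in p53+/+ (orange) and p53-/- (blue) cells, 1 array per point. The mitotic median went from -0.04 at 24 h to -4.54 at 48 h in p53+/+ cells and from 1.87 to 2.53 in p53-/- cells.

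Homologous recombination and Fanconi genes were lower in 4 of 18 cases (22.2%, against 9.34% of all genes). The count was 15 without the p53+/+ array at 48 h, 1 without any single p53-/- array, and 0 by limma without the 24 h pair, where 9 had an unadjusted p under 0.05. It was 17 with spike-in scaling or normexp and 11 without scaling. BARD1, the partner of BRCA1, differed by -3.00 ± 0.47 (adjusted p = 0.00911), XRCC2 by -2.54 and XRCC3 by -2.35, both of which act in strand exchange. XRCC2 was well above background on 2 of 3 p53+/+ arrays. RBBP8 (CtIP), which starts end resection, differed by -0.75 and did not pass with time as a block (adjusted p = 0.0837), and PALB2 differed by -0.55. Of E2F factors and cyclins, 10 of 24 (41.7%) were lower and 2 (8.33%) higher, against 9.34 and 11.5% of all genes. Without scaling 19 were lower and 1 higher, without the p53-/- array at 24 h 3 were lower, and without the 24 h pair 0 were lower by limma, where 13 had an unadjusted p under 0.05. E2F2, an activating E2F, read -0.57, -1.89 and -5.99 in p53+/+ and 3.49, 3.56 and 3.47 in p53-/- cells, a difference of -6.32 ± 1.28 (adjusted p = 0.0199). CCNE2, the S-phase cyclin E2, differed by -4.80 and the repressive E2F8 by -4.50. All 3 genes were well above background on 2 of 3 p53+/+ arrays. CCND2 and the pocket protein RBL2 (1.09, p130) were the higher members. CDK6 (0.12) and the DREAM subunit LIN37 (-0.19) did not pass.

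Of 22 replication-dependent histone genes, 3 were higher and 3 lower (13.6% each), near the 11.5 and 9.34% of all genes. H1-2, a linker histone, read 4.44, 5.98 and 6.85 against 2.99, 3.14 and 4.02, and H2AC6 differed by 1.83. H2BC21 was well above background on 2 of 3 p53-/- arrays, differed by 2.68 and did not pass with time as a block (adjusted p = 0.0529). H3C2 (-2.36), H4C3 (-1.15) and H3C8 (-0.93, adjusted p = 0.0619 with the block) were lower, and H2AC20 (0.02) and H3C1 (-0.11) were close between the lines. Histone genes resemble each other closely, and a probe may read more than 1 of them.

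Many epithelial adhesion and keratinocyte genes were higher in p53+/+ cells, and others did not pass. Of 14 MCF10A markers, 11 (78.6%, against 11.5% of all genes) were higher and 0 lower, with a median of 1.62 and of 1.35, 1.85 and 1.48 at the 3 times. CDH1 (E-cadherin) read 1.42, 2.00 and 2.10 in p53+/+ and -3.30, -2.19 and -0.94 in p53-/- cells, a difference of 3.98 ± 0.58 (adjusted p = 0.0068). EPCAM, an epithelial adhesion molecule, differed by 2.81, CDH3 (P-cadherin) by 2.61 and the basal keratin KRT5 by 2.06. CDH1 and EPCAM stood higher at each later time on the single p53-/- arrays. KRT6A (0.26) and EGFR (0.43) did not pass. Without the 24 h pair, 0 of the 14 markers passed by limma, although 11 had an unadjusted p under 0.05 and the median was 1.45.

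Of 29 epidermal differentiation genes tested, 14 (48.3%, against 11.5% of all genes) were higher and 0 lower. The count was 8 without the p53-/- array at 24 h or with spike-in scaling, 9 without the 48 h pair, 4 without the 24 h pair and 21 with normexp. The median was 1.16 and ranged from 0.57 without scaling to 1.62 among probes above background on all 6 arrays. Next to the LCE genes and IVL named above, GRHL3, a transcription factor of the skin barrier, differed by 3.83 ± 0.40 (adjusted p = 0.00241), reading 1.54, 1.26 and 0.97 against -3.45, -2.32 and -1.97. The suprabasal keratin KRT10 (-0.08) and SBSN (0.18) did not pass. KRT1, DSG1, KLK7, KLK10 and KLK11 were not well above background on any of the 6 arrays.

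Matrix, integrin and mesenchymal genes went both ways, with 9 of 40 higher (22.5%) and 15 lower (37.5%), against 11.5 and 9.34% of all genes. Their median was -0.90. Without scaling 5 were higher and 20 lower, without the p53-/- array at 24 h 4 and 5, and without the 24 h pair 2 and 0, with 15 lower at an unadjusted p under 0.05. Higher were COL17A1, the hemidesmosomal collagen (3.83 ± 0.37, adjusted p = 0.00177), and LAMA3 (2.86), a chain of laminin-332. The other higher members included LAMB3 of the same laminin and the integrins ITGA6, ITGB4 and ITGB6. SPARC, a matrix glycoprotein, was also higher, reading 1.79, 1.89 and 1.45 against -4.35, -4.35 and -3.83. FN1 (fibronectin) was lower, at -1.16, -2.09 and -2.43 against 1.42, 1.29 and 1.03 (-3.14 ± 0.35, adjusted p = 0.0028). CDH2 (N-cadherin, -2.01), ZEB1 (-1.73), TNC (tenascin C, -1.73) and TWIST1 (-1.14), which were chosen after their values were seen, were lower as well. ZEB1 and TWIST1 are repressors of epithelial genes. VIM (vimentin) differed by -0.54 and did not pass, and PLAU and TIMP1 (0.01) were close between the lines.

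Markers of fibroblasts share COL1A1 with the matrix list, which went both ways. Of 6 markers, 4 were tested and all 4 were lower in p53+/+ cells, against 9.34% of all genes. PDGFRB turned to 0.13 with normexp and to 0.50 with a signal floor. LUM, COL1A1 and PDGFRB were well above background on no p53+/+ array. They entered the test through the p53-/- arrays and could hardly have come out higher, so their direction was largely set by the filter. COL1A2 and COL3A1 were not well above background on any array. The summed signal of the 6 markers was 4.33 to 5.24 times the 75th percentile in p53+/+ and 52.4 to 67.3 times in p53-/- cells. Nearly all of it was DCN, which read 2.09, 2.28 and 2.37 against 5.70, 5.99 and 6.07. LUM was at least 6.15-fold and COL1A1 at least 2.85-fold lower in p53+/+ cells. PDGFRB (-1.36) was well above background on 2 p53-/- arrays alone. Leukocyte markers summed to 1.84 to 3.33 against 4.04 to 6.12, with CD14 at -1.07 and PTPRC at -0.01 between the lines. Endothelial markers summed to 0.179 to 0.228 against 0.358 to 0.507, with PECAM1 at least 6.58-fold lower in p53+/+ cells and CDH5 at 0.22. Of hormone-responsive luminal markers, GATA3 was higher (1.53), TFF1 (0.44) and FOXA1 (0.71) did not pass and PGR was above background on no array. The part of other cells in these differences was not tested.

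**Figure D4:**
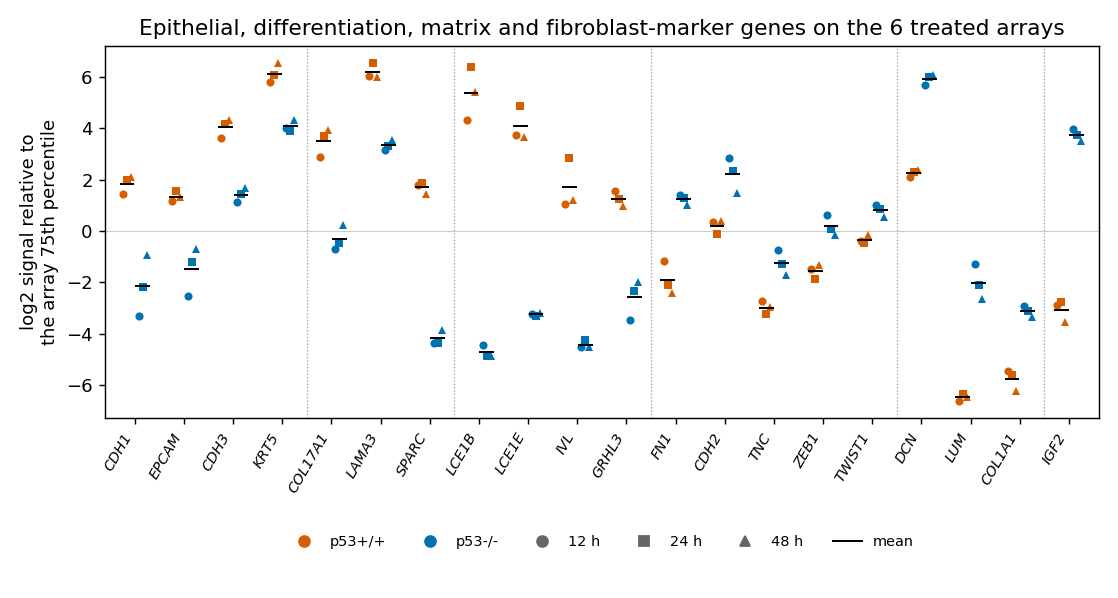
Levels of 20 epithelial, differentiation, matrix and fibroblast-marker genes on the 6 treated arrays (log2 signal relative to the array's 75th percentile), drawn as circles for 12 h, squares for 24 h and triangles for 48 h with a bar for the mean. The p53+/+ points (orange) lie above the p53-/- points (blue) from CDH1 to GRHL3 and below them from FN1 to IGF2, where LUM and COL1A1 were not well above background in p53+/+ cells. These genes were chosen by size or after their values were seen, which nearly fixes this. Of all genes tested, 24.6% lie above and 19.9% below in the same way.

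Cytokines differed gene by gene, with 5 of 29 tested inflammatory genes higher (17.2%) and 4 lower (13.8%), against 11.5 and 9.34% of all genes. IL1A, an alarmin, read 2.48, 2.76 and 2.98 in p53+/+ against -2.47, -2.70 and -2.40 in p53-/- cells, a difference of 5.26 ± 0.21 (adjusted p = 0.000112), and IL1B differed by 3.94. IL6 went the other way, at -1.97, -1.58 and -1.08 against 1.08, 2.20 and 2.50 (-3.47 ± 0.42, adjusted p = 0.00374). CXCL8, a neutrophil chemokine like CXCL5, was not well above background in p53+/+ cells and was at least 2.92-fold lower. The NF-kB inhibitor NFKBIA (-0.12) and the NF-kB subunit NFKB2 (-0.17) did not pass. CCL2, CXCL6, IL36G and TNF were not well above background on any of the 6 arrays. Without scaling the split was 3 higher and 11 lower.

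Of 33 interferon-stimulated genes 6 (18.2%) were higher and 4 (12.1%) lower, not far from the 11.5 and 9.34% of all genes, and their median went from 0.63 at 12 h to 0.38 at 24 h and -0.37 at 48 h. HERC5, which attaches ISG15 to proteins, was well above background on 1 of 3 p53-/- arrays and differed by 4.25 ± 0.68. IFI44 (-2.71) and CMPK2 (-2.58), both interferon-induced, were lower like IFI44L, although IFI44 was well above background on 2 of 3 and CMPK2 on 1 of 3 p53+/+ arrays. Their differences were -1.54 and -1.34 with normexp. On the p53-/- arrays the median level of the list was -1.03 at 12 h and -0.14 at 48 h, whereas the p53+/+ arrays gave -0.54 and -0.93. IFI6 (0.07) and the RNA sensor RIGI (0.09) did not pass.

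Of growth factors and receptors, 5 of 24 were higher (20.8%) and 4 lower (16.7%), against 11.5 and 9.34% of all genes. The counts were 2 and 7 without scaling. IGFBP2, which binds IGF2, stood higher at each later time in both lines, at 0.37, 1.56 and 3.75 in p53+/+ and -4.08, -2.67 and -1.23 in p53-/- cells, a difference of 4.55 ± 1.01 (adjusted p = 0.0267). TGFB2 (-3.73) was well above background on 1 of 3 p53+/+ arrays. BMP4 (-1.93), well above background on 2 of 3 p53+/+ arrays, was lower, with an adjusted p of 0.0742 with time as a block, and EREG (-0.04) and FGF2 (0.10) were close between the lines. Of AP-1 and immediate early genes, 4 of 23 were higher (17.4%) and 1 lower (4.35%), against the same shares of all genes. However, 1 was higher and 7 were lower without scaling. Spike-in scaling gave 2 higher and 6 lower. The stress factor ATF3 read 3.37, 3.94 and 2.83 against 0.34, 1.41 and 2.30, so its difference shrank from 3.02 to 0.53, and its adjusted p was 0.0434 without and 0.0693 with time as a block. DUSP5, an ERK phosphatase, differed by 1.68 and EGR1 by 0.91. PHLDA1 (1.13) and JUNB (-0.80) passed without the block and had adjusted p-values of 0.0648 and 0.059 with it. EGR1 and PHLDA1 did not pass without scaling or with spike-in scaling, nor PHLDA1 with median scaling, and ATF3 did not without scaling or with quantile normalization. DUSP1 and FOSL1 (both -0.01) were at equal levels to within an SE of 0.24 and 0.19.

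Most genes of metabolism, stress and protein synthesis did not pass, as was so for 12439 of all 15713 genes tested. The shares over all genes were 11.5% higher and 9.34% lower. Of 27 sterol and fatty acid genes 1 was higher and 1 lower, FADS2 (1.63) and the sterol sensor partner INSIG1 (-2.33), while HMGCS1 (-0.03) and FDFT1 (0.04) were close. Neither passed with spike-in scaling, nor FADS2 without scaling, where 0 of the 27 were higher and 8 lower. Of 21 integrated stress response genes 2 were higher and 2 lower, and 1 and 4 without scaling. SESN2, also a p53 target, differed by 3.21 and PSAT1, of serine synthesis, by 1.12, against -2.15 for STC2 and -0.74 for ATF5, and the master factor ATF4 differed by 0.04. ATF5 did not pass with time as a block (adjusted p = 0.081), nor PSAT1 without scaling or with spike-in scaling. Of 19 NRF2 pathway genes 3 were higher and 0 lower, the reductase AKR1B10 (4.07), the efflux pump ABCC2 (8.58-fold) and TKT (1.15), and the glutathione synthesis genes GCLC (-0.06) and GCLM (-0.07) were close. TKT did not pass under any other scaling.

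Ribosomal protein genes had a median of 0.34, which became -0.08 with quantile normalization, -0.26 without scaling and -0.32 with spike-in scaling, so their direction depended on the scaling. Of 32 members 2 (6.25%) were higher and 0 lower, against 11.5 and 9.34% of all genes. RPS19 (0.77), of the small subunit, did not pass under any other scaling or with time as a block (adjusted p = 0.0615). Of 24 ribosome biogenesis genes, NOLC1 (-1.39) was lower and 0 were higher, whereas 16 were lower without scaling, 10 with spike-in scaling, 8 with normexp and 6 with quantile normalization. Of 14 reference genes SDHA (1.02) was higher, and B2M (0.02) and PGK1 (0.05) were close between the lines. SDHA did not pass without scaling, where 0 of the 14 were higher and 5 lower, or with spike-in scaling.

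The matched differences were compared over the 3 times, each being 1 array against 1 array with no test. At least 2-fold higher in p53+/+ cells were 2032 genes (12.9%) at 12 h, 2064 (13.1%) at 24 h and 2507 (16%) at 48 h, and at least 2-fold lower were 1515 (9.64%), 2203 (14%) and 2451 (15.6%). Of the 2032 genes higher at 12 h 57.7% were also higher at 48 h, which was 46.8% of those at 48 h. Of the 1515 lower at 12 h 67.1% were also lower at 48 h, which was 41.5% of those at 48 h. Among called genes above background on all 6 arrays, the differences that shrank most from 12 to 48 h were those of the G-protein regulator RGS16 (7.67 to 3.46), LINC01704 (5.25 to 0.51), LRATD1 (6.33 to 3.39), ARL14 (4.42 to 1.51) and CRYBG2 (4.17 to 1.34). RGS16 went from -3.36 to -0.84 in p53-/- cells and from 4.31 to 2.61 in p53+/+ cells. In size, the differences that grew most were those of KIF23 (-1.73 to -5.56), CCNA2 (-2.07 to -5.80), PSMC3IP (-2.16 to -5.86), CDKN2C (-1.27 to -4.78) and CLIC3 (-1.88 to -5.36). KIF23 is a motor of cytokinesis, CCNA2 the cyclin of S phase and mitosis, PSMC3IP a recombination cofactor and CDKN2C the CDK inhibitor p18. With time as a block CLIC3 alone of these 5 passed, and LINC01704 did not.

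**Figure D5:**
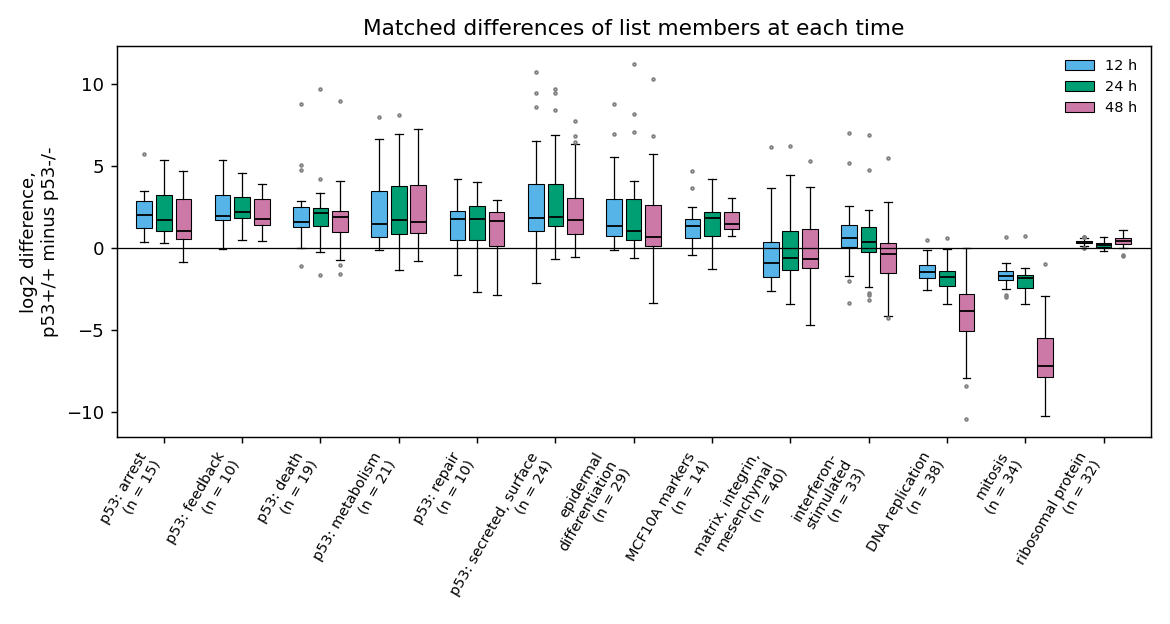
Differences of treated p53+/+ minus treated p53-/- cells for the members of 13 gene lists at 12, 24 and 48 h (log2). Boxes span the interquartile range of the members with a line at the median, whiskers reach 1.5 times the box and dots lie beyond. The p53 lists stayed above 0 at each time, whereas the mitotic median went from -1.83 at 24 h to -7.16 at 48 h.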

How the data were processed

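RNA of treated MCF10A cells was measured on single-colour Agilent SurePrint arrays, 1 per genotype and time. The authors deposited the output of Feature Extraction 10.7.3.1, with the processed signal of each spot, an intensity after background correction by that software, per the file headers on build hg19. The deposited series table repeated these intensities, with 377856 of 377856 values equal within a relative 1e-05. Normalization between arrays is not given in the sources used here. The number of arrays limits the precision.

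Control spots and outlier-flagged spots were left out, levels were averaged over spots of a probe, and 42398 probes were kept. Of these 27231 (64.2%) were named by accession through RefSeq, and 28494 that were well above background on at least 1 of 6 arrays were tested. A gene took its brightest probe, and 5 of 3828 genes with several probes had probes called both ways. limma 3.58.1 in R 4.3.3 fitted genotype over 6 arrays (4 residual degrees of freedom), with Benjamini-Hochberg adjusted p under 0.05. Bounds set the mean of the brighter genotype against the lowest signal well above background on each array. The fit was tested on simulated data with 200 of 28494 probes changed. It recovered 6% of log2 changes of 1, 49.3% of 2 and 90.9% of 4, with 4 false calls. More probes were called in the data, so these shares may not carry over. A gene that did not pass may still differ. Deviations of same-time arrays from their genotype means correlated at 0.24, 0.19 and 0.14. Arrays of different times were not correlated for comparison, so these values cannot decide whether pairing by time helps. Times were taken from the labels, and a fit with time as a block is given where it changes a call. Named genes were those of largest smallest matched difference (10 each way, and 5 each way as bounds), those the study followed, those whose difference moved most over time, up to 4 of largest and 2 of smallest difference in each of 28 lists with opposite members, and all markers, unless said. Genes and lists were chosen with earlier results of these data known. A few list members that were not matched to a probe by name were not analysed here. Promoters came from RefSeq GRCh38.p14. Python 3.11.15 was used. Results for a few genes are not reported here.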

Additional observations from a re-analysis of the deposited data

Results flagged for a closer look

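Differences that changed direction between time points were picked out among list members above background on all 6 arrays, where the 12 h and the 48 h difference were each at least 2-fold and opposite. With 1 array per genotype and time, the change was not tested. IFIT1, an interferon-induced inhibitor of translation, was higher in p53+/+ cells at 12 h (1.53) and lower at 48 h (-4.28), with -0.73 at 24 h. IFIT2, of the same family, went from 1.41 to -0.64 and -2.14. Both stood higher at each later time in p53-/- cells, IFIT1 from -3.70 to 0.64 and IFIT2 from -2.96 to 0.30. SBSN, a suprabasal keratinocyte protein, went from 1.44 and 1.06 to -1.95. INHBA, a subunit of activin A, went the other way, from -1.34 and -0.08 to 1.71, and its level in p53+/+ cells went from 0.67 to 3.97. In all, 28 of 11993 genes above background on all 6 arrays changed direction in this way, and the p53+/+ array at 48 h enters each of them.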

How the results depend on the processing

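Called probes, 2963 higher and 2132 lower, became 1369 and 8039 without scaling. They numbered 1008 and 3800 with spike-in scaling of the 12 and 24 h arrays, 6910 higher with normexp background correction, 9834 higher with no filter on dim probes and 6179 higher with a signal floor. Genes at least 2-fold apart at every time, 1076 higher and 933 lower, became 540 and 2148 without scaling, 2921 lower with spike-in scaling, 543 lower with normexp, 488 lower among probes above background on all 6 arrays, and 573 and 438 under a 3-fold rule. With arrays or time points left out, called probes ranged from 208 to 2478 higher and from 85 to 2002 lower, the fewest without the 24 h pair, and the 2-fold counts from 1173 to 1415 and from 1017 to 1472. The same omissions gave medians of 1.71 to 1.94 for the p53 targets, 0.71 to 1.25 for differentiation, 1.45 to 1.71 for MCF10A markers, -4.54 to -1.78 for mitosis and -2.69 to -1.60 for replication. The p53 target, MCF10A and differentiation medians were 1.28, 1.02 and 0.57 without scaling. Spike-in scaling gave 1.34, 0.98 and 0.64 in the same order. Quantile normalization gave 1.73 and 1.31 for the first and second, and probes above background on all 6 arrays gave 1.62 for differentiation. PDGFRB, near background, turned to 0.13 with normexp and 0.50 with the floor. With time point as a replicate block, 2510 probes were higher and 1884 lower. In that fit 18 of 180 named genes lost their call, and the text says so beside each of these that it names. More lost it when arrays were left out, 86 of 180 without the 24 h pair and 48 without the p53-/- array at 24 h. Those losses are given beside a few genes only. Without scaling GATA3, H1-2, H2BC21, RBL2 and LINC01704 did not pass, with quantile normalization H1-2, PSMC3IP and LINC01704 did not, and with spike-in scaling H1-2, H2AC6 and RBL2 did not. The causes of these changes were not tested. Brightness over background limits the genes near it, which include most mitotic genes on the p53+/+ array at 48 h.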
